A study of Mus musculus with 4 samples.

Results

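The Notch pathway was described here in heart valve leaflets of newborn mice through 10 genes: the receptors Notch1, Notch2, Notch3 and Notch4, the ligands Jag1 and Dll4, and the target genes Hes1, Hey1, Hey2 and Heyl. The genes were taken with every probe set annotated to that symbol alone, which gave 20 of the 45037 non-control probe sets of the array (10 of 18193 genes with such a probe set). The leaflets came from the aortic and pulmonary valves of Cxcr7-/- neonates, which lack the chemokine receptor Cxcr7 (current symbol Ackr3), and of wildtype littermates, labelled Control; the Cxcr7-/- pools are also called mutants and the Control pools controls. Each of the 4 arrays held RNA of 1 pool of 3 neonates, and there were 2 pools of each genotype. A Cxcr7-/- neonate gave 4 to 6 leaflets and a Control neonate 6. Strain, sex and the litters behind a pool are not in the labels, which call the pools biological replicates. The series title names the valve phenotype of the mutant, and the comparison asks how these genes differ in signal between the genotypes.

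Notch receptors are single-pass membrane proteins that are switched on by ligands of the Jagged and Delta-like families on a neighbouring cell. Ligand binding exposes the receptor to an ADAM protease and then to gamma-secretase, and the freed intracellular domain joins the DNA-binding protein RBPJ and Mastermind to activate genes such as those of the Hes and Hey repressors. In the developing heart, Notch1 in endocardium is known for its part in forming the valve cushions, and changes in NOTCH1 and JAG1 are known in human valve and outflow tract disease.

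The targeted gene followed its labels. Ackr3 read 28.3 and 328 in the Cxcr7-/- pools (replicates 1 and 2, the order kept throughout) and 4936 and 5698 in the Control pools. Markers of valve interstitial cells and fibroblasts were all 11 above the filter on dim probe sets, which uses the mean over the 4 arrays, and so were all 12 endothelial and all 12 cardiomyocyte markers. The median signal was 84.5 to 110 over the arrays, and Control replicates 1 and 2 correlated at r = 0.931 over the probe sets kept, below the 0.953 of Control replicate 1 with Cxcr7-/- replicate 2 (a description, since probe sets share the arrays).

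No Notch gene passed the test between genotypes. Of the 20 probe sets, 12 lay above the filter, which kept the brighter 22518 probe sets by the mean over all 4 arrays, and all 10 genes had at least 1 among these 12. At an adjusted p of 0.05 in limma 0 of the 12 were called, and 0% of all probe sets kept were. Ackr3 itself was not called, at a log2 fold change of -5.33 (limma adjusted p = 0.400). At an unadjusted p under 0.05, 0 were higher and 0 lower, where 3.94% of all probe sets kept were higher and 6.18% lower. The median log2 fold change was -0.04 for the 12 and -0.02 for all probe sets kept, and the median of the absolute values was 0.19 for the 12 and 0.31 for all. Both Cxcr7-/- pools lay above both Control pools in 2 of the 12 (Hes1 and Hey1), against 20.1% of all probe sets kept. Both lay below in 2 of the 12 (1 probe set each of Notch1 and Notch3), against 22.3%. These shares are near those of all probe sets, and Notch1 and Heyl count with 2 probe sets each.

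**Figure D1:**
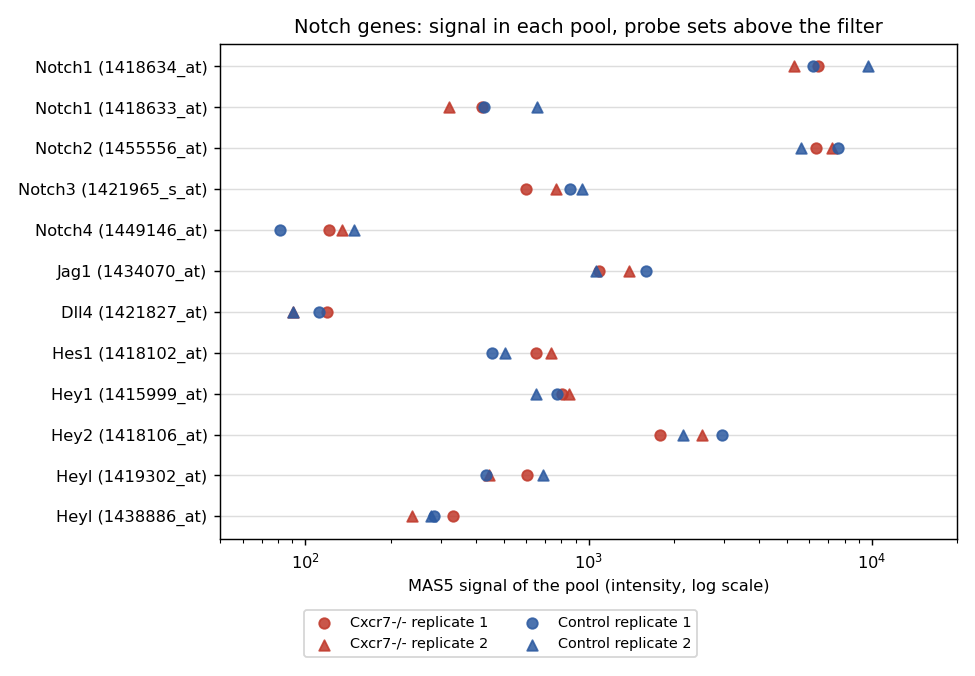
MAS5 signal of each pool on a log axis for the 12 Notch probe sets above the filter, 1 row for each, with red for Cxcr7-/- and blue for Control, circles for replicate 1 and triangles for replicate 2. The genotypes are apart for Hes1 and Hey1 (Cxcr7-/- higher) and for Notch1 (1418633_at) and Notch3 (Cxcr7-/- lower), and overlap in the other 8 rows, and positions are to be compared within a row only.

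Among the receptors, Notch1, the main endocardial receptor, had 2 probe sets, both with a negative log2 fold change and highest in Control replicate 2. The first (1418634_at) read 6435 and 5318 in the mutants against 6162 and 9668 in the controls. Control replicate 2 stood above the other pools, while Control replicate 1 lay between the mutants, so the genotypes overlapped. The log2 fold change was -0.40 ± 0.28 (SE, n = 2 pools a genotype, limma adjusted p = 0.660). The other probe set (1418633_at) read 419 and 322 against 427 and 657, which gave -0.50 ± 0.34 on the log2 scale (limma adjusted p = 0.655). Here the mutants were lower than both Control pools, but Cxcr7-/- replicate 1 and Control replicate 1 were almost equal. The sizes rested on the Control pools: without Control replicate 2 the 2 log2 fold changes were -0.07 and -0.20, and without Control replicate 1 they were -0.72 and -0.80. In that last fit both had an unadjusted p under 0.05 (0.0114 and 0.0380), with limma adjusted p of 0.115 and 0.204, where 21.4% of all probe sets kept had an unadjusted p under 0.05.

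Endothelial markers differed between the same pools. Negative log2 fold changes were found for 10 of 12, with a median of -0.56, and 5 of these had an unadjusted p under 0.05. Summed, they came to 15064 and 13998 in the mutants against 20260.5 and 26245 in the controls, highest in Control replicate 2. Single markers differed in this: Cdh5, Kdr, Cldn5, Vwf, Robo4, Egfl7 and Eng were highest in that pool, while Pecam1, Tek and Emcn were lowest there. Tie1 was highest in Control replicate 1 and Esam in Cxcr7-/- replicate 1. The claudin gene Cldn5 was at -1.73, Vwf at -0.83 and the VEGF receptor gene Kdr at -0.72, while Pecam1 (0.06), Tek (-0.07) and Emcn (-0.10) lay near 0. Of the 5, Robo4, was dim in the mutants (59.3 and 57.6 against 136 and 205) and passed the filter through the controls. The part of the endothelial share in the Notch1 values was not tested. In pooled tissue, fewer cells of a type and less RNA per cell cannot be told apart.

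Notch2, a receptor of endocardium and mesenchyme, read 6351 and 7203 in the mutants against 7566 and 5628 in the controls (1455556_at). The Control pools were the highest and the lowest of the 4, with both mutants between them. The log2 fold change was 0.05 ± 0.24 (limma adjusted p = 0.960), and its 95% interval ran from 0.704-fold to 1.53-fold, the narrowest among the 12. Without Cxcr7-/- replicate 2 it was -0.04 and without Control replicate 2 it was -0.16. With each array scaled to its median, both mutants lay above both controls, at a log2 fold change of 0.19. Under that scaling 28.8% of all probe sets kept had both mutants above both controls, against 20.1% without it.

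Notch3, the receptor of vascular smooth muscle and pericytes, read 602 and 765 in the mutants against 859 and 950.0 in the controls (1421965_s_at). The mutants were lower than both Control pools, at 75.6% of the Control mean. The gap between Cxcr7-/- replicate 2 and Control replicate 1 was smaller than the gap between the mutants, and the log2 fold change was -0.40 ± 0.28 (limma adjusted p = 0.666). It stayed negative with any 1 array left out, from -0.57 without Cxcr7-/- replicate 2 to -0.23 without Cxcr7-/- replicate 1. Scaling each array to its median moved every log2 fold change up by 0.14, and the median of all probe sets kept from -0.02 to 0.12. The array medians that it evened out were 84.5 and 92.5 in the mutants against 110 and 89.9 in the controls. After this scaling this Notch3 probe set was at -0.26 and Notch1 at -0.26 and -0.37, and none of these probe sets had its genotypes apart. Both mutants then lay below both controls in 13.8% of all probe sets kept, against 22.3% before. The same scaling turned the split of all probe sets at an unadjusted p under 0.05 from 39.0% higher to 63.7% higher. With quantile normalization instead, both mutants lay below both controls for Notch3 (1421965_s_at) and for Notch1 (1418634_at), where 19.3% of all probe sets kept did.

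Markers of smooth muscle and mural cells went both ways beside Notch3. Of 8 measured above the filter, 3 were positive and 5 negative, with a median of -0.10, and the summed signal of the 9 listed was 26199 and 29379 in the mutants against 30627 and 38516 in the controls. The contractile genes Acta2 and Tagln were at -0.61 and -0.71, and Kcnj8 and Abcc9, subunits of the potassium channel of pericytes, were at 1.02 and 0.72, each at an unadjusted p under 0.05 and none past the adjusted threshold. Their part in the Notch3 values was not tested.

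Notch4, a receptor of endothelium, read 121 and 134 in the mutants against 81.1 and 149 in the controls (1449146_at). The Control pools lay on either side of the mutants. The log2 fold change was 0.17 ± 0.42 (limma adjusted p = 0.916) and turned to -0.19 without Control replicate 1. Its 95% interval, from 0.575-fold to 2.21-fold, was the widest of the receptors.

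The ligand genes showed no difference in either direction beyond the spread of the pools. Jag1, the Jagged ligand of endocardium and cushion mesenchyme, read 1091 and 1387 in the mutants against 1597 and 1060 in the controls (1434070_at). The Control pools were again the highest and the lowest. The log2 fold change was -0.08 ± 0.30 (limma adjusted p = 0.95), with a 95% interval from 0.581-fold to 1.54-fold, and it was 0.06 with each array scaled to its median. Dll4, the Delta-like ligand of arterial endothelium, read 119 and 90.6 against 112 and 90.2 (1421827_at). For Dll4, replicates 1 were the higher and replicates 2 the lower in both genotypes, and the log2 fold change was 0.04 ± 0.40 (limma adjusted p = 0.981, 95% interval from 0.540-fold to 1.96-fold). The arterial endothelial markers were split: of 5 above the filter, the connexin gene Gja4 (-1.48) and the ephrin gene Efnb2 (-0.67) were lower and the kinase gene Bmx (0.94) higher at an unadjusted p under 0.05, and Gja5 read between 1.89 and 7.34 in all pools.

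Of the target genes, Hes1 had the largest log2 fold change among the 12 probe sets. Hes1, a repressor induced by Notch in many cell types, read 649 and 735 in the mutants against 454 and 504 in the controls (1418102_at). The mutant pools were both higher, and the gap between the genotypes was wider than the gap within either. The log2 fold change was 0.51 ± 0.29, 1.42-fold, with a 95% interval from 0.900-fold to 2.25-fold (unadjusted p = 0.113, limma adjusted p = 0.591). It lay between 0.42 and 0.65 under every alternative in scaling, pseudocount, filter and arrays, and the adjusted p lay between 0.462 and 1.00. An interval that holds 1 as well as 2.25 leaves the size of the difference undetermined with 2 pools a genotype.

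Hey1, a Hey repressor of endothelium and atrial muscle, read 801 and 852 in the mutants against 775 and 650.3 in the controls (1415999_at). Both mutants were above both Control pools, by little over Control replicate 1, and the log2 fold change was 0.21 ± 0.28 (limma adjusted p = 0.824). Without Control replicate 2 it was 0.09. Heyl, the Hey gene of smooth muscle and pericytes, had 2 probe sets above the filter. They read 607 and 443 against 434 and 688 (1419302_at) and 331 and 237 against 284 and 278 (1438886_at). Cxcr7-/- replicate 1 exceeded replicate 2 in both, the genotypes overlapped, and the log2 fold changes were -0.07 ± 0.34 and 0.00 ± 0.34 (limma adjusted p = 0.960 and 0.999), with signs that changed with the array left out.

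Hey2, the Hey gene of ventricular muscle and arterial endothelium, read 1784 and 2501 in the mutants against 2958 and 2158 in the controls (1418106_at). The genotypes overlapped, with Control replicate 1 highest and Cxcr7-/- replicate 1 lowest. The log2 fold change was -0.26 ± 0.29 (limma adjusted p = 0.795). It was -0.01 without Cxcr7-/- replicate 1 and -0.50 without Cxcr7-/- replicate 2. Cardiomyocyte markers were all 12 negative, with a median of -1.01 and 8 at an unadjusted p under 0.05, and their summed signal was 85764 and 122704 against 151969 and 222588. They were highest in Control replicate 2, where Hey2 was below Control replicate 1 and Cxcr7-/- replicate 2. Of lung epithelium markers all 4 were negative too, with summed signals of 1290 and 1469 against 4140.0 and 7734. The largest part of these sums was Scgb3a2 (1067 and 696 against 3190 and 6476), and Sftpc overlapped between genotypes. Scgb1a1 was dim in the mutants (23.4 and 55.5 against 316 and 468) and passed the filter through the controls. The part of carried tissue in these values was not tested.

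**Figure D2:**
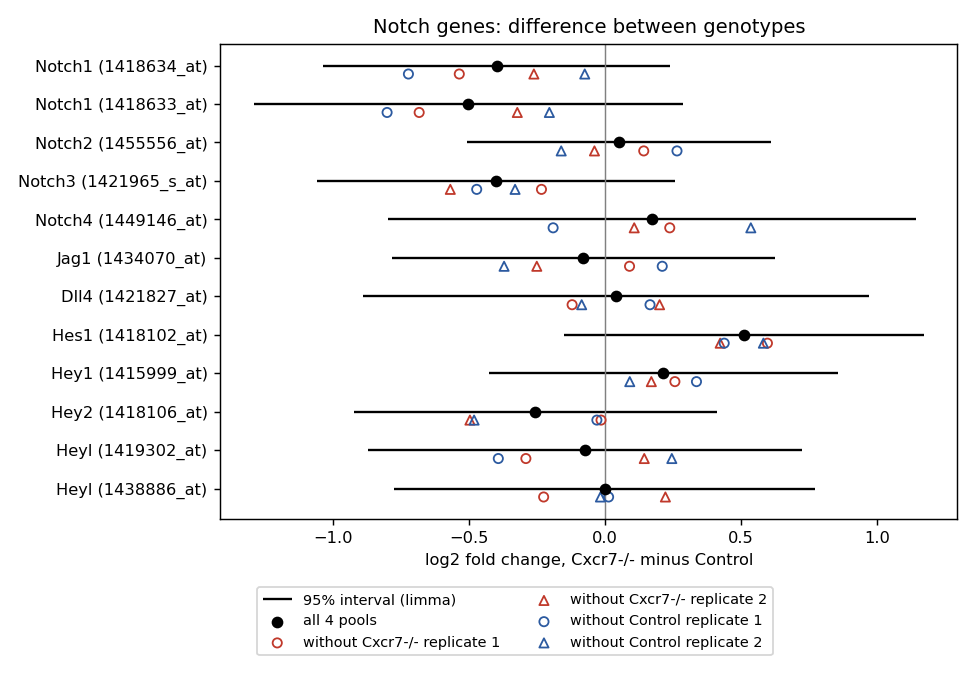
Log2 fold change of Cxcr7-/- minus Control for the 12 Notch probe sets above the filter, with filled points for all 4 pools, lines for the 95% interval of limma and open symbols for the fit without 1 pool. All 12 intervals include 0, Hes1 lies between 0.42 and 0.60 with any pool left out, and Notch1 moves from -0.07 without Control replicate 2 to -0.72 without Control replicate 1 (1418634_at).

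The promoter of Hey2 is shown because its window in the RefSeq promoter table (build GRCm38.p6) held letters of the RBPJ motif. Windows of 7 of the 10 genes were matched (all but Hes1, Hey1 and Heyl), each of 250 bases before to 50 after the gene's start. The letters GTGGGAA (on either strand, the longer form of the core TGGGAA, chosen after the core's matches were seen) occurred at 2 places in the Hey2 window, and neither form occurred in the windows of Notch1, Notch2, Notch3, Notch4, Jag1 and Dll4. Of 32851 promoter windows of this length, 25.6% held TGGGAA and 6.38% held GTGGGAA at least once. At least 2 matches were found in 3.79% of the windows for TGGGAA and in 0.256% for GTGGGAA. The E box CACGTG, which Hes and Hey proteins and other factors can bind, was in none of the 7 windows and in 7.15% of all. The first line below gives the 250 bases before the start of Hey2 (minus strand, chr10:30842784-30843033), with the match on the opposite strand, at positions -207 to -201, in capitals. The second gives the match at positions -4 to 3, where 1 is the first base transcribed, with the bases around it (chr10:30842772-30842796).
Hey2 upstream: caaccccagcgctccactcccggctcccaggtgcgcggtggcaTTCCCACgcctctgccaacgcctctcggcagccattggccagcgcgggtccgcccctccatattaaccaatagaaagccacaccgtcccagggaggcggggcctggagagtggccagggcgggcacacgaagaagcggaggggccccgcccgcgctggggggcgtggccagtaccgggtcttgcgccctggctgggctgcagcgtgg
Hey2 start: ggctgcagcGTGGGAAagaacctcc
These matches describe letters only and say nothing of binding in these leaflets.

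The remaining 8 probe sets of the Notch genes lay below the filter and entered no test in the comparison above. All of their signals were between 3.31 and 116, near the pseudocount of 22, where MAS5 values carry large relative errors, and detection calls were not used here. In 3 of the 8, both Cxcr7-/- pools read higher than both Control pools, against 14.0% of all probe sets below the filter, and in 0 both read lower, against 19.7%. Notch3 (1421964_at) read 97.5 and 82.2 against 17.5 and 46.0, the opposite of the brighter Notch3 probe set. Heyl (1419303_at) read 46.6 and 44.9 against 12.4 and 3.31, where the brighter Heyl probe sets overlapped between genotypes. Notch4 (1436901_at) read 29.0 and 26.7 against 7.03 and 4.46. With no filter, limma gave Heyl an unadjusted p of 0.0265 and this Notch4 probe set 0.0448, with adjusted p of 0.626 and 0.653, where 7.57% of all probe sets had an unadjusted p under 0.05. The fold depends on the pseudocount, as the log2 difference of Heyl was 2.84 without it and 0.48 after making it 4 times larger. The other 5 (2 of Jag1 and 1 each of Notch2, Notch4 and Dll4) overlapped between genotypes.

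**Figure D3:**
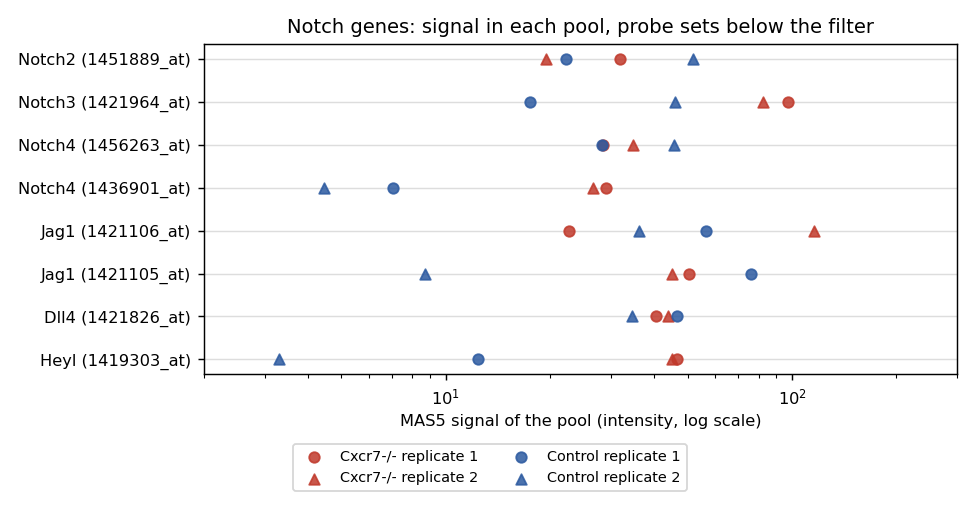
MAS5 signal of each pool on a log axis for the 8 Notch probe sets below the filter, colours and symbols by genotype and replicate. Cxcr7-/- pools lie above both Control pools for Notch3 (1421964_at), Notch4 (1436901_at) and Heyl (1419303_at), at signals under 98, and the genotypes overlap in the other 5 rows.

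Of 51 other genes of the pathway, 45 were matched to a probe set and 35 lay above the filter. In limma 0 of the 35 passed at an adjusted p of 0.05, and at an unadjusted p under 0.05 1 was higher and 2 lower in Cxcr7-/- pools, against the 3.94% and 6.18% of all probe sets kept. Their median log2 fold change was -0.04. Both mutants lay above both controls in 6 of the 35 and below in 10, where 20.1% and 22.3% of all probe sets kept did. Dner, a neuronal ligand-like protein, read 595 and 426 in the mutants against 245 and 271 in the controls, a log2 fold change of 0.91 ± 0.33 (limma adjusted p = 0.453), and its other probe set was at 1.49 ± 0.43. Beside it, the neuronal genes Prph and Tubb3 were at 1.77 and 1.10, and the summed signal of the 3 matched Schwann cell and neuron markers was 954 and 836 against 385 and 358. The Schwann cell gene Sox10 among them was at 0.12 (117 and 114 against 112 and 98.3), so the sum differed mainly through Prph and Tubb3. Whether Dner is tied to them was not tested. Ligands Dll1 (0.07) and Jag2 (0.51) were positive as well, while Dll3 (-0.91), Dlk1 (-1.31) and Dlk2 (-0.56), all negative, lay below the filter and were not tested.

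Dtx1, of the Deltex ubiquitin ligases and known as a Notch target in lymphocytes, read 252 and 240.1 in the mutants against 370.0 and 726 in the controls, a log2 fold change of -1.02 ± 0.38 (limma adjusted p = 0.459). It was at -0.55 without Control replicate 2 and at -1.48 without Control replicate 1 (limma adjusted p = 0.0445), a fit in which 2.99% of all probe sets kept passed the adjusted threshold and 1 of the 35 genes did. Its other probe set lay below the filter at -0.0091, with overlapping genotypes. Dtx3 read 572 and 716 against 963 and 1265, at -0.77 ± 0.29 (limma adjusted p = 0.459), and Dtx2 was at -0.27 and Dtx4 at -0.06. Nrarp, a feedback inhibitor that Notch induces directly, read 1074 and 1152 against 909 and 902 (0.29 ± 0.26, limma adjusted p = 0.738).

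No gene of the core machinery passed the test, and 0% of all probe sets kept did. Of the sheddases, Adam17 was at 0.37 ± 0.24 and Adam10 at 0.13 ± 0.27, and of 4 gamma-secretase genes above the filter 2 were positive and 2 negative, with the catalytic subunit Psen2 at -0.56 ± 0.30 the farthest from 0. Of 5 genes of the transcription complex, Rbpj, the DNA-binding partner of all Notch receptors, read 3122 and 2842 against 3078 and 4047, at -0.24 ± 0.25 (limma adjusted p = 0.769). Among enzymes that add sugars to Notch, the O-glucosyltransferase Poglut1 was at 0.51 ± 0.26, and Mfng, Rfng and Pofut1 lay between -0.34 and -0.18. The ligand ubiquitin ligase Mib2 was at -0.53 ± 0.31 and Mib1 at 0.10 ± 0.24. The corepressor gene Hdac1 was at 0.26 ± 0.25, and Hes6 was the 1 other Hes gene above the filter, at -0.44 ± 0.38.

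**Figure D4:**
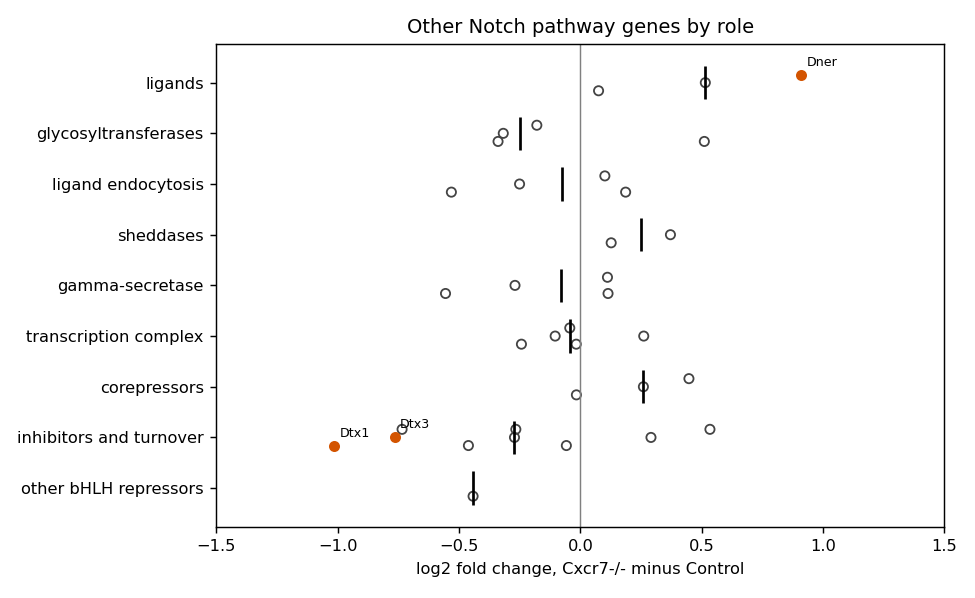
Log2 fold change of Cxcr7-/- minus Control for the 35 other pathway genes above the filter, by role, with a vertical bar at each group's median and filled points for an unadjusted p under 0.05 in limma. Dner lies to the right at 0.91 and Dtx1 and Dtx3 to the left at -1.02 and -0.77, and the median over all 35 is -0.04.

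Markers of other cell types that a leaflet pool can hold were read in the same pools. Macrophage markers were all 8 positive, 5 at an unadjusted p under 0.05, with summed signals of 18958 and 16852 in the mutants against 12654 and 10551 in the controls. Interstitial markers were near 0 in the median, with sums of 296579 and 309945 against 316047 and 218991, so that Control replicate 2 was the lowest. Control replicate 2 was thus highest for endothelial and cardiomyocyte sums and lowest for the interstitial sum. It was also lowest for the arterial endothelial sum (17472 and 17466 in the mutants against 22041 and 15513 in the controls). The largest part of that sum was Nrp1 (10906 and 10779 against 11836 and 6184), lowest in that pool. Single arterial markers differed: Bmx and the very dim Gja5 were lowest there too, Gja4 was highest there, and Efnb2 and Sox17 were neither. Among the Notch probe sets above the filter, Control replicate 2 was highest for Notch1 (both), Notch3, Notch4 and Heyl (1419302_at). It was lowest for Notch2, Jag1, Dll4 and Hey1, and in 31.7% of all probe sets kept. The share of all probe sets kept in which it was highest was not counted. The part of cell makeup in these values was not tested.

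**Figure D5:**
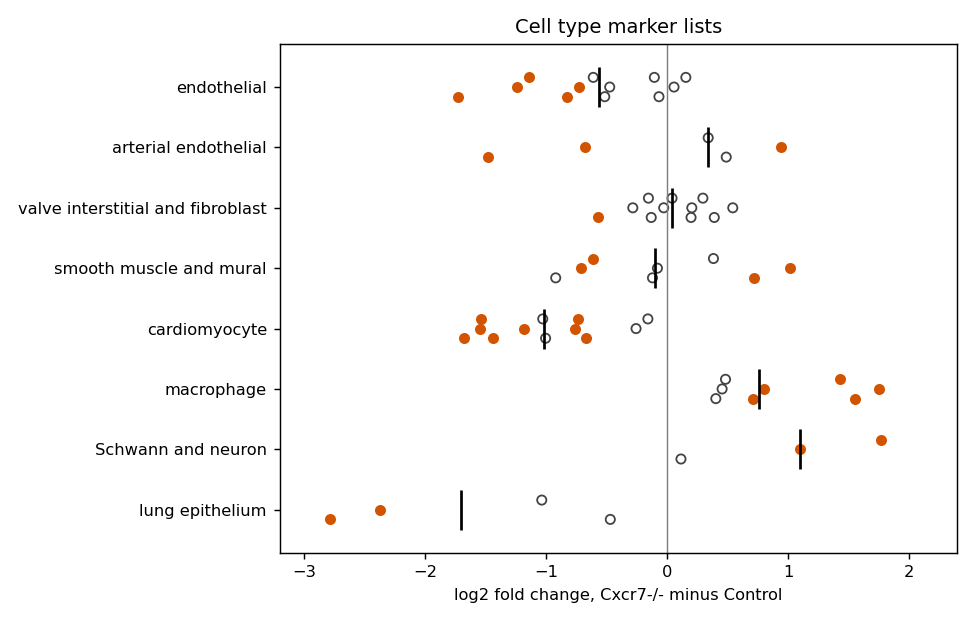
Log2 fold change of Cxcr7-/- minus Control for marker genes above the filter, by cell type, with a vertical bar at each list's median and filled points for an unadjusted p under 0.05 in limma. Medians are -0.56 for endothelial, 0.04 for interstitial, -0.10 for smooth muscle and mural, -1.01 for cardiomyocyte and 0.76 for macrophage markers.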

How the data were processed

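RNA of semilunar valve leaflets from 4 pools was amplified in 2 rounds from 50 ng and hybridised to 1 Affymetrix array per pool, per the labels' protocols. The deposited values are linear intensity values, 1 signal per probe set and array, and Affymetrix Expression Console and MAS5 are named in the submitters' processing notes. After trimming to the middle 96%, the mean signal of each array was 500.003, so the arrays share a scaling target. MAS5 subtracts background, and amplification in 2 rounds lowers signal far from the 3' end, so probe sets of a gene can differ. Suffixes _s_at and _x_at mark probe sets that can match further transcripts. The Expression Console version was not given in the sources used here.

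The 64 AFFX control probe sets were left out. Signals were taken as log2(signal + 22), 22 being the rounded 25th percentile of all values, and probe sets with a mean above the median were kept. Genes were named from the platform annotation, with symbols updated by gene identifier for 34741 of 34945 probe sets with 1 symbol. Genotypes were compared across all 22518 probe sets kept with limma 3.58.1 in R 4.3.3 (eBayes with trend, 5.85 prior and 2 residual degrees of freedom, two-sided, Benjamini-Hochberg), after a check on simulated data. An exact permutation test of 2 against 2 pools cannot go below p = 0.333 and was not used. Array number limits the precision. Other pathway genes and markers were represented by their brightest single-symbol probe set. Listed genes that were not matched were not analysed here. All probe sets of the 10 genes are given. Other pathway genes are named where they had the smallest unadjusted p of their role or one under 0.05, and further ones were chosen after their values were seen. The genes and lists were chosen with earlier results of these data known. Alternatives were pseudocounts, filters, scalings, no trend, a replicate block and each array left out.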

Additional observations from a re-analysis of the deposited data

How the results depend on the processing

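None of the 12 Notch probe sets above the filter passed the adjusted threshold under any alternative (lowest adjusted p 0.115, Notch1 without Control replicate 1). The sign held under all of them for 6 (both of Notch1, Notch3, Hes1, Hey1 and Hey2) and turned for 6, whose cause was not tested. With median centring, Jag1 was at 0.057 and Heyl at 0.064 (1419302_at) and 0.14 (1438886_at). The latter was at 0.10 after quantile normalization and at 0.00088 with a pseudocount 4 times larger. With 1 array left out, Notch2 ran from -0.16 to 0.26, Notch4 from -0.19 to 0.54, Jag1 from -0.37 to 0.21, Dll4 from -0.12 to 0.20, and Heyl from -0.39 to 0.25 and from -0.23 to 0.22.

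The median of the Notch probe sets was 0.10 with median centring, 0.042 with no filter (20 probe sets), and between -0.080 and 0.034 with 1 array left out. With no filter, 2 of 20 had an unadjusted p under 0.05 and 7 had genotypes apart, against 7.57% and 38.0% of all probe sets. With 1 array left out these counts were 0 to 2 and 6 to 10 of 12, against 3.93% to 21.4% and 65.8% to 78.9% of all. A fit without 1 array leaves a lone pool in 1 genotype, whose spread is taken from the other. The count of all probe sets past the adjusted threshold was 0 to 673 with 1 array left out, the most without Control replicate 1. Other pathway genes at an unadjusted p under 0.05 were 1 with the filter at the 75th percentile, 1 with median centring and 0 to 5 of 35 with 1 array left out, against 9.81%, 9.90% and 3.93% to 21.4% of all probe sets. The 5 were without Control replicate 1, where the share of all was 21.4%.

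No label ties replicate numbers to a litter or day, and deviations of same-numbered pools correlated at -0.262. With a replicate block, 0 Notch probe sets and 0 of all passed, and 2 other pathway genes had an unadjusted p under 0.05. With the numbers crossed, chosen after seeing the data, 0 Notch probe sets and 5 of all passed.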

Other observations

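Pools of 1 genotype differed from each other for several Notch genes as much as the genotypes did. In 7 of the 12 Notch probe sets above the filter, the Control pools were farther apart on the log2 scale than the Cxcr7-/- pools. The share of all probe sets kept with a wider Control gap was not counted, so this is not read as a trait of Notch genes. Over all probe sets kept, the Control pools correlated at r = 0.931 and the Cxcr7-/- pools at r = 0.956. Notch2, Jag1 and the sheddase gene Adam10 ran in the same order over the pools, with Control replicate 1 highest, then Cxcr7-/- replicates 2 and 1, and Control replicate 2 lowest. Control replicate 1 was highest and Control replicate 2 lowest in 10.5% of all probe sets kept, and Adam10, which read 9643 and 11336 in the mutants against 11972 and 7656 in the controls, was picked after its values were seen.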
